A study of Drosophila melanogaster with 5 samples.

Results

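The translational efficiency (TE) of a gene was taken as the density of ribosome footprints from all polysomes divided by the density of total cytoplasmic mRNA, both over its coding sequence (CDS), in Drosophila S2 cells. Each gene was represented by its longest annotated CDS, and the 6330 genes with an mRNA density of 5 RPKM or more were kept, of 13967 genes with a listed CDS. RPKM is the number of reads set against the length of the CDS and the mapped total of its library. Of the genes left out, 5369 were listed at an mRNA RPKM of 0, 2143 lay above 0 and under 5 RPKM, and 125 had no values. The limit of 5 RPKM cuts through a continuous range. Just outside it were CAP at 4.988 RPKM, St3 at 4.994 RPKM and Nufip at 4.997 RPKM, with a TE of 0.74, 0.20 and 1.06. Just inside it were CG10268, CG7115 and rdx at 5.002, 5.01 and 5.02 RPKM, with a TE of 2.64, 1.35 and 2.13.

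S2 is a cell line of embryonic origin with features of hemocytes, the blood cells of the fly. Cycloheximide, which holds ribosomes on mRNA, was given to the cells shortly before harvest and was present in the wash and lysis buffers, and no genotype or treatment was compared. The 5 samples of the study were footprints of all polysomes, of small polysomes, of large polysomes, a deeper library of small polysomes, and polyadenylated mRNA of the cytoplasm. The ratio described here uses the first and the last of these. By the study's methods the all-polysome footprints came from an experiment of their own, in which rRNA fragments were removed with beads, and the deeper small-polysome library was a repeat experiment. The lineage markers were in place, since 7 of 11 listed hemocyte genes reached 5 mRNA RPKM (srp, the GATA factor of blood cells, at 109 RPKM, Pvr, a receptor tyrosine kinase, at 136 RPKM and Pxn, an extracellular peroxidase, at 327 RPKM), while Hml, He, vkg and Cg25C stayed under it. Of 8 listed markers of neurons, muscle, germ line and fat body the highest reached 1.75 mRNA RPKM and 4 were at 0. In the all-polysome footprints, however, Act88F had 22.2 RPKM (80 reads) and elav 8.85 RPKM (41 reads), and the next was Mhc at 1.33 RPKM.

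Poly-Ribo-Seq sequences the short mRNA fragments that ribosomes protect within polysomes, the mRNAs on which several ribosomes are at work. Dividing these footprints by the mRNA gives a measure of how densely an average copy of the mRNA is covered by the ribosomes of polysomes. Copies that carry a single ribosome or none count in the mRNA only. In most cells the mRNA level sets most of the protein output, and TE adds a layer of control that is best known from the mRNAs of ribosomal proteins, ferritin and stress factors. In a bulk lysate, fewer copies of an mRNA in polysomes and fewer ribosomes on each copy cannot be told apart.

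Counting was deep for most genes. The deposited RPKM values were whole multiples of the value of 1 read, and the steps gave 3190000 mapped reads for all polysomes and 4560000 for mRNA. The members held 2300841 footprints and 3580314 mRNA reads, with a median of 154 and 205 reads per gene. There was 1 footprint library against 1 mRNA sample, so no difference given here has a replicate check, and each interval is an exact 95% binomial (Clopper-Pearson) interval that covers counting error only. Reads without molecular identifiers are not independent molecules.

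Footprints followed mRNA over the whole range of levels, and most genes lay close to a common ratio. The median TE was 1.01, with quartiles of 0.73 and 1.44 and deciles of 0.534 and 2.07, a 3.88-fold range between the 10th and the 90th percentile. The spread of TE on the log2 scale was 0.71, against a median counting error of 0.15, so most of the spread between genes was larger than counting error. Across the 6330 genes, Spearman's rho of footprint and mRNA RPKM was 0.791, and 0.858 without the histone repeats described below. A TE of 1 means an equal share of mapped reads per length of CDS in both libraries and is not a number of ribosomes.

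**Figure D1:**
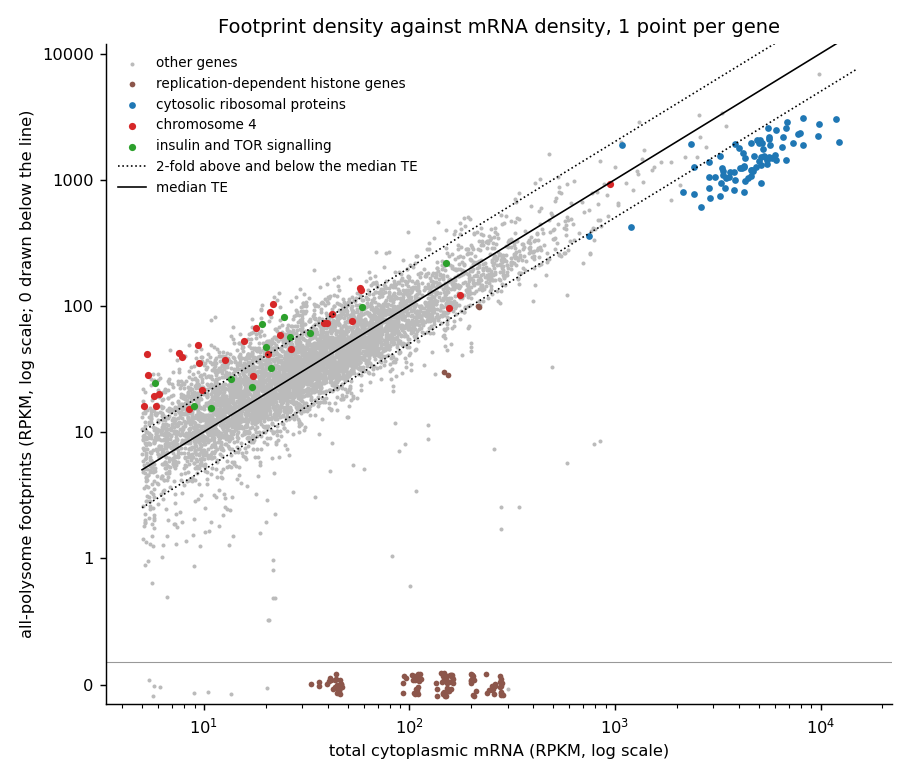
Each point is 1 of 6330 genes, with total cytoplasmic mRNA on the x axis and all-polysome footprints on the y axis, both in RPKM on log scales, and 116 genes without a footprint drawn below the grey line. The solid line is the median TE of 1.01 and the dotted lines are 2-fold above and below it. Ribosomal proteins (blue, RpS3A of chromosome 4 included) sit mostly under the lower line, histone repeats (brown) mostly at 0, and the other chromosome 4 genes (red) and insulin and TOR genes (green) mostly above the solid line.

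A TE at least 2-fold above the median was found for 688 genes, which is 10.9% of all members, and a TE at least 2-fold below it for 566 genes, or 8.94%. These calls are called high and low TE from here on. The whole counting interval lay beyond the 2-fold limit for 351 genes (5.55%) above and 298 genes (4.71%) below. The tails were uneven further out, with 49 genes (0.774%) at least 4-fold above the median and 206 genes (3.25%) at least 4-fold below it. Of the low genes 111 were histone repeats, and without them 455 genes were low (7.32% of 6219) and 97 genes were at least 4-fold below (1.56%).

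The high genes were long genes of modest mRNA level and the low genes short genes of higher mRNA level. The median CDS of the 688 high genes was 709.5 aa with 5 exons, and their median mRNA level was 16.3 RPKM. The 455 low genes outside the histone repeats had a median of 246 aa and 44.7 RPKM, and the 5076 genes between the limits 455 aa and 32.8 RPKM. CDSs of over 1000 aa made up 35.3% of the high genes and 1.98% of these low genes. Footprints covered a median fraction of 0.892 of the CDS in high genes, 0.866 in the genes between and 0.669 in the low genes. Coverage and TE both rise with the number of footprints, so they are not independent.

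By the study's cut-offs on footprint RPKM, coverage and reads, 5265 members counted as translated in all polysomes, which is 83.2%. Outside the histone repeats 954 members did not pass, among them 853 with a footprint density under the RPKM cut-off. The rest reached that density with a coverage under 0.57. Of the high genes 668 of 688 passed, and of the 455 low genes 249. The footprint density enters both TE and the cut-offs, so this difference follows in large part from how the genes were called.

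Among genes with at least 50 mRNA reads the highest TE was that of CG31998 (FBgn0051998), whose CDS lies on chromosome 4 from 218504 to 225326 in FlyBase Release 5. It had 41.7 footprint RPKM on 5.31 mRNA RPKM, a TE of 7.85 with a counting interval of 6.37 to 9.75. RasGAP1, a protein that switches off the small GTPase Ras, had 78.4 footprint RPKM on 10.9 mRNA RPKM, a TE of 7.20 (6.12 to 8.52). The RNA-binding zinc finger protein unk followed at 6.63 (5.03 to 8.84) and the nuclear import receptor Trn at 5.86 (4.71 to 7.34). The intervals of these genes overlap, so their order is not resolved by counting. These 4 genes had 5.31 to 10.9 mRNA RPKM and 63 to 176 mRNA reads.

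The transcription factor dm, the Myc protein of the fly and a driver of growth, had 102 footprint RPKM on 19.1 mRNA RPKM, a TE of 5.31 (4.51 to 6.27). The kinase CaMKII reached 5.02 (3.72 to 6.86), the kinase anchor spoon 4.99 (4.17 to 5.99), and the cadherin partner p120ctn 4.96 (4.13 to 6.0). The phosphatase Dd had a TE of 5.37 (4.13 to 7.04) and the N-glycan enzyme alpha-Man-I a TE of 5.12 (3.76 to 7.09). The best counted gene of this end was CG8184, a ubiquitin ligase of 5151 aa and the homologue of human HUWE1, with 5526 footprint reads against 1598 mRNA reads and a TE of 4.94 (4.67 to 5.23). The remaining genes of the 15 highest were known by identifier only, namely CG32000 (5.64), CG43954 (5.59), CG31637 (5.42) and CG2316 (5.23). CG43954 was the short one among them, with 118 aa.

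All 49 genes at least 4-fold above the median had an mRNA level of at most 34.4 RPKM, and their median was 9.72 RPKM. The list held further parts of Ras signalling, with the Ras inhibitor Nf1 at 4.36 and the GTPase Rala at 4.71. It held the cell polarity and growth suppressors l(2)gl at 4.05 and brat at 4.07, the insulin receptor InR at 4.23, the Wnt pathway kinase sgg at 4.05, the metalloprotease kuz at 4.15 and the Hox cofactor exd at 4.57. These roles were read from the list after its values were seen and were not compared with a count over all genes. Of the 49 genes, 12 had under 50 mRNA reads, among them the tetraspanin Tsp96F at 7.34 (5.30 to 10.4).

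The same genes were read in the separate polysome fractions, with the same mRNA values in the denominator, so the ratios share that denominator and are no independent check. RasGAP1 gave 52.8 RPKM from large polysomes and 30.8 RPKM from the deeper library of small polysomes, with ratios of 4.85 and 2.83. CG8184 had 150.6 RPKM in large and 17.5 RPKM in small polysomes, ratios of 6.64 and 0.77. CG31637 had 129 and 204 RPKM, ratios of 5.55 and 8.78. The long CG8184 was thus high in large polysomes and not in small ones, while the shorter CG31637 was high in both. The medians of all members were 0.92 for large polysomes and 0.96 for the deeper small-polysome library.

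**Figure D2:**
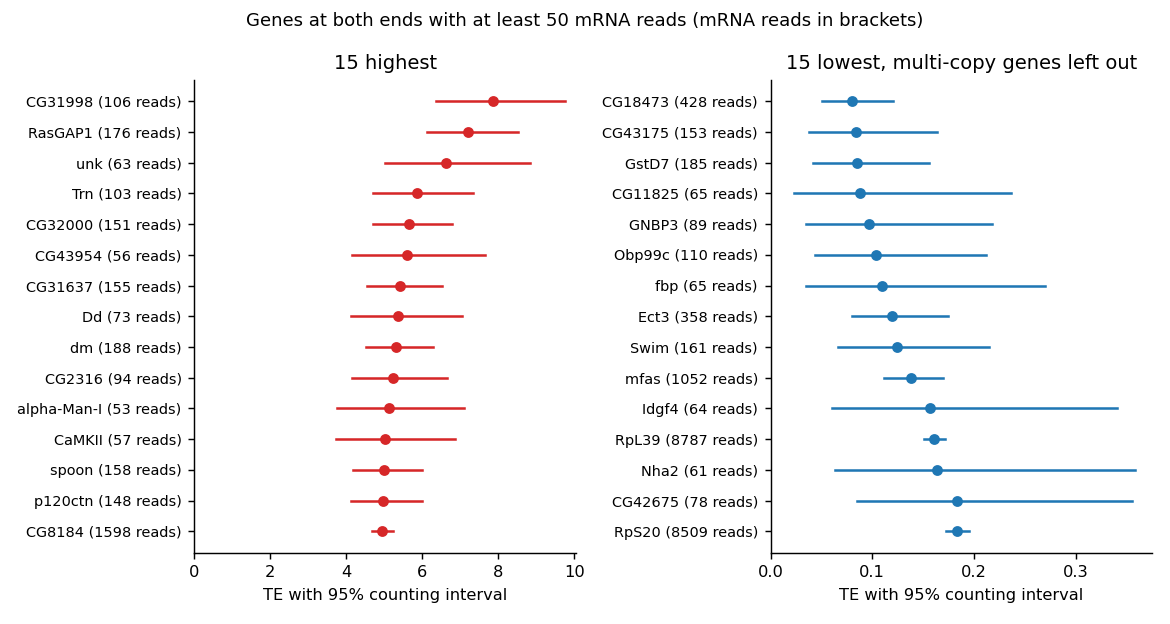
TE (x axis, linear) of the 15 highest genes and of 15 of the lowest genes with at least 50 mRNA reads, with multi-copy genes and histone repeats left out at the low end. Points are TE, lines are exact 95% counting intervals, and brackets give mRNA reads. The high genes run from 7.85 (CG31998) to 4.94 (CG8184) and the low genes from 0.08 (CG18473) to 0.18 (RpS20), each side on its own scale.

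The lowest TE values belonged to genes present in several near-identical copies, and these values are uncertain. All 111 replication-dependent histone genes that passed the mRNA limit were low, and 107 of them were among the 116 members (1.83% of all) with no footprint at all. These genes lie in a tandem repeat on 2L and code for the core and linker histones that package new DNA. Their mRNA level ran from 33.3 to 46.9 RPKM for the 23 copies of His1 and from 237 to 284 RPKM for the 20 copies of His2A, with 117 to 486 mRNA reads per copy and no footprint in these classes. In the deeper small-polysome library the copies of His1, His2A and His3 also had no footprint. The histone variants that are single genes gave ordinary values, with His3.3A at 0.80, His2Av at 1.08, His4r at 1.67 and His3.3B at 2.29. Replication-dependent histone mRNAs end in a stem-loop instead of a poly(A) tail in most animals, while the mRNA here was selected by its poly(A) tail. The study's methods state that reads mapping to more than a single place were dropped. Its summary of reads, however, gives a number of unique matches for each footprint library and none for the mRNA libraries. The ORF reads of the mRNA libraries are set there against all mapped reads. Many near-identical copies also carry the same or nearly the same mRNA RPKM. Reads that map to several places may thus count in the mRNA column and not in the footprints. A TE near 0 of the copies of histone, Hsp70, Prx2540 and Sdic genes therefore cannot be read as little translation. The part of read mapping and of mRNA selection in these values was not tested.

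Other multi-copy genes had similarly low values. The 6 copies of the inducible chaperone gene Hsp70 had 20.6 to 22.1 mRNA RPKM and 2 to 6 footprint reads, and a TE of 0.02 to 0.05. The peroxiredoxin genes Prx2540-1 and Prx2540-2 and their neighbour CG12896 had a TE of 0.01 at 585 to 846 mRNA RPKM. Sdic1, a member of the sperm dynein Sdic repeat, had 3 footprint reads against 716 mRNA reads, and the polyubiquitin genes Ubi-p5E and Ubi-p63E, whose own sequence repeats, had a TE of 0.03 and 0.07. CG33498 had no footprint against 504 mRNA reads, which allows a TE of up to 0.01. Some copies carried one and the same mRNA value: the proteasome gene Prosalpha1 and its neighbour CG30382 were both at 753.67 mRNA RPKM, with a TE of 0.35 for each.

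To mark such genes, members with another member within 100 kb whose CDS length lies within 0.3% and whose mRNA RPKM lies within 1.2-fold were counted. There were 185, of which 74 are not histone repeats. The 74 had a median TE of 0.54, and 35 of them were low, against 8.94% of all members. Apart from the histone repeats, 9 members had no footprint. They include the antimicrobial peptide CecA2, the immune genes edin and nimB3, and the detoxifying enzyme GstD2. The counting interval ended under the low limit for CG33498 and GstD2 (40 mRNA reads, upper bound 0.14), CG43781 (16 reads, upper bound 0.37) and nimB3 (15 reads, upper bound 0.40). The other 5 had 5 to 11 mRNA reads, too few to place them.

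The following low genes without a marked copy were chosen after their values were seen. GNBP3, which recognises fungal cell walls, had 1.28 footprint RPKM on 13.3 mRNA RPKM, a TE of 0.10 (0.03 to 0.22). The odorant-binding protein Obp99c had a TE of 0.10, the secreted Wg-interacting molecule Swim 0.12, the adhesion protein mfas 0.14 and the chitinase-like growth factor Idgf4 0.16. In the deeper small-polysome library Obp99c had 78.8 RPKM and a ratio of 1.49, so it was not low there. Among these genes mfas was counted best, with 102 footprint against 1052 mRNA reads and an interval of 0.11 to 0.17. The gluconeogenic enzyme fbp stood at 0.11 (0.03 to 0.27) and the glutathione S-transferase GstD7 at 0.08 (0.04 to 0.16), with a ratio of 0.69 in the deeper small-polysome library. Over the 15 members of the GstD and GstE families the median TE was 0.52, and 6 were low, against 8.94% of all members. Several of these families hold similar copies, which were marked only by the rule above.

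Long genes were rare at the low end, and r was the clearest exception. It codes for the large enzyme that starts pyrimidine synthesis, lies on X from 16550431 to 16562627 and has 2224 aa. It had 41.1 footprint RPKM on 181 mRNA RPKM, from 876 and 5499 reads, a TE of 0.23 (0.21 to 0.24). In CDSs of over 1500 aa the median TE was 1.73, and 5 of 373 genes were low. Large polysomes gave 51.5 RPKM and the deeper small-polysome library 9.0 RPKM for r, ratios of 0.29 and 0.05. Another long and abundant gene under the limit was zip, the heavy chain of non-muscle myosin, at 592 mRNA RPKM with a TE of 0.47 (0.45 to 0.48).

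TE was lower at higher mRNA levels. The median was 1.34 in the 789 genes of 5 to 10 mRNA RPKM, 1.14 at 10 to 30 (n = 2313), 0.97 at 30 to 100 (n = 2214), 0.78 at 100 to 300 (n = 739), 0.74 at 300 to 1000 (n = 169) and 0.34 in the 106 genes of 1000 RPKM and over. High TE was called for 24.2% of genes in the lowest class and for 1 of 106 genes in the highest. Spearman's rho of TE and mRNA RPKM over the 6330 genes was -0.34, and the slope of log2 footprints on log2 mRNA was 0.83 over those with footprints. The mRNA value is also the denominator of TE, so the 2 quantities are not independent. With at least 50 mRNA reads and without the histone repeats (n = 5525) rho was -0.37.

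The value of the top class rested on the ribosomal proteins. Without them and the histone repeats the median of genes at 1000 RPKM and over was 0.81 (n = 26), against 0.74 (n = 168) and 0.83 (n = 655) in the classes below it. The log2 spread was 0.86 in the class of 5 to 10 RPKM, with a median counting error of 0.30, 0.72 at 10 to 30 RPKM, and 0.59 at 30 to 100 RPKM, with a counting error of 0.13. It was 0.57 and 0.58 in the next classes, so it changed little between 30 and 1000 RPKM. In the top class it was 0.71, and 0.41 without the ribosomal proteins and histone repeats (n = 26). Counting error was the smaller part of the spread in the classes of 5 to 10 and 30 to 100 RPKM.

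Each mRNA class had its own extremes. Between 100 and 300 RPKM the highest genes were Mlc-c, a myosin light chain (3.39), the fatty acid desaturase desat1 (2.71) and the ubiquitin-conjugating enzyme eff (2.66). Between 300 and 1000 RPKM they were the chromatin protein Df31 with 1607 footprint RPKM on 477 mRNA RPKM, a TE of 3.37 (3.15 to 3.61), the proton pore Vha16-1 of the vacuolar ATPase (2.35) and the lipocalin Karl (2.31). At 1000 RPKM and over only tsr was called high. It is the fly cofilin, which severs actin filaments, and had 2900 footprint RPKM on 1303 mRNA RPKM, a TE of 2.23 (2.12 to 2.34). The mitochondrial ADP/ATP carrier sesB followed at 1.89 and RpL38 at 1.77.

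At the low side of the abundant classes, outside marked copies and above CG12896, Ubi-p63E, CG33491 and CG33498 (0.01, 0.07, 0.01 and 0), stood Arc1, a Gag-derived protein that forms capsids, with a TE of 0.21 (0.19 to 0.24) at 584 mRNA RPKM, and the actin-severing protein Gel with a TE of 0.32 (0.30 to 0.33) at 698 mRNA RPKM. The small Golgi protein ksh, of 72 aa, had 0.29 (0.18 to 0.46). By footprints alone the 10 most covered CDSs were led by Ef1alpha48D, the elongation factor that brings tRNAs to the ribosome, at 6930 RPKM. The neuropeptide-like protein Nplp2 at 3428 RPKM and actin Act5C at 3260 RPKM came next, and their TE was 0.70, 1.03 and 1.27.

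TE was higher in longer CDSs. The median was 0.78 in CDSs of up to 100 aa (n = 195, each class taking its upper bound), 0.68 at 100 to 150 aa (n = 433), 0.88 at 150 to 250 aa, 0.91 at 250 to 500 aa, 1.06 at 500 to 1000 aa, 1.36 at 1000 to 1500 aa (n = 572) and 1.73 above that (n = 373). Without histone repeats and ribosomal proteins the class of 100 to 150 aa had a median of 0.82 (n = 319), so the dip there rested on these families. High TE was called for 33.8% of CDSs of over 1500 aa and 3.59% of those of up to 100 aa. Spearman's rho of TE and length was 0.39 over 6330 genes, as a description of genes that share both libraries. The footprints come from polysomes only, and the study warns that very short ORFs without room for several ribosomes may be missed. The part of this in the length trend was not tested.

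Within a class of mRNA level the length trend remained, and within a class of length the mRNA trend did. At 10 to 30 mRNA RPKM the median TE was 0.82 in CDSs of up to 100 aa (n = 44), 0.97 at 250 to 500 aa (n = 709) and 1.81 over 1500 aa (n = 197). At 100 to 300 RPKM the same length classes had 0.78 (n = 35), 0.80 (n = 235) and 1.34 (n = 12). In CDSs of 250 to 500 aa the median ran from 1.14 at 5 to 10 RPKM (n = 269) to 0.74 at 300 to 1000 RPKM (n = 47). In CDSs of up to 100 aa the median was 0.86 at 5 to 10 RPKM (n = 17) and 0.87 at 30 to 100 RPKM (n = 67). It was lower above that, with 0.78 at 100 to 300 RPKM (n = 35) and 0.61 at 300 to 1000 RPKM (n = 20). The polysome fractions differed here, since the median ratio in CDSs of over 1500 aa was 1.74 in large polysomes and 0.77 in the deeper small-polysome library, and in CDSs of up to 100 aa 0.27 and 1.41.

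Genes with upstream ORFs listed in the deposited tables had a higher TE of the main CDS than genes without. Upstream ORFs are short reading frames in the 5′ leader, and many of them are known to hold ribosomes back from the main CDS. In 6108 genes outside the histone repeats whose CDS could be linked to a transcript, the median TE was 0.92 with no listed upstream ORF (n = 3902), 1.12 with 1 (n = 1291), 1.37 with 2 to 4 (n = 796) and 1.86 with 5 and over (n = 119). Genes with many upstream ORFs also had long CDSs and low mRNA levels, with medians of 1043 aa and 18.6 RPKM in the last group against 403 aa and 34.2 RPKM in the first. Within CDSs of 500 to 1000 aa the medians were 0.97 (n = 1091), 1.17 (n = 406), 1.36 (n = 279) and 1.71 (n = 38). Upstream ORFs were listed for 58.4% of high genes and 17.2% of the 455 low genes, against 34.8% of genes between. The part that leader length or the link to 1 transcript has in this was not tested.

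**Figure D3:**
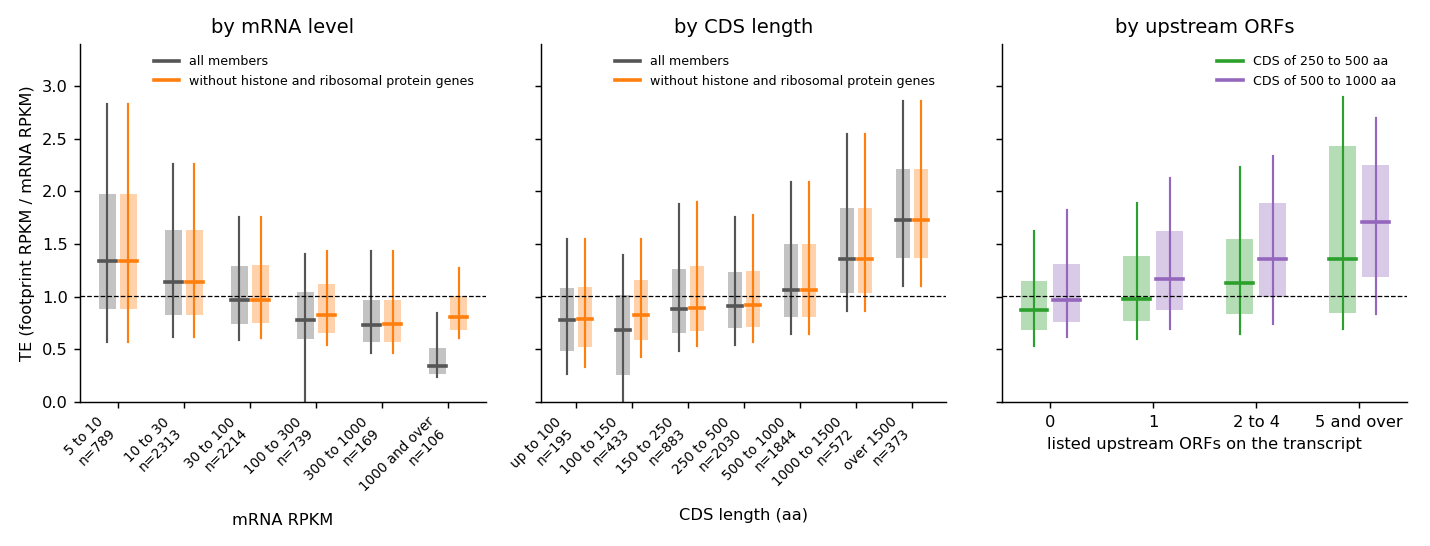
TE on the y axis by mRNA RPKM (left), CDS length (middle) and the number of listed upstream ORFs within 2 length classes (right). Thick lines are medians, boxes quartiles, thin lines the 10th to 90th percentile, and the dashed line the median of all members, 1.01. The median runs from 1.34 to 0.34 with mRNA level (to 0.81 without histone and ribosomal protein genes), and runs from 0.78 to 1.73 with length.

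Among the gene families the cytosolic ribosomal proteins, the building blocks of the ribosome, had the lowest median after the histones. Of 88 listed genes 81 were members. Their median TE was 0.30 with quartiles of 0.26 and 0.37, 78 were low against 8.94% of all members, and none was high. The median was 0.30 for the 47 proteins of the large subunit and 0.30 for the 34 of the small one. The ribosomal protein genes took 25.3% of the mRNA reads of all members and 9.12% of the footprints. They made up 80 of the 106 genes at 1000 RPKM and over and 9 of the 10 highest by mRNA. Non-ribosomal genes within the same range of length, 25 to 416 aa, had a median TE of 0.86 at 1000 RPKM and over (n = 17) and 0.71 at 300 to 1000 RPKM (n = 125).

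The lowest of them was RpL39, of 51 aa and on 2R, with 1989 footprint RPKM on 12352 mRNA RPKM, the highest mRNA level of all members, and a TE of 0.16 (0.15 to 0.17). RpS20 had 0.18 and RpL37A 0.19. Next to RpL21 at 0.52, 2 genes left the group. RpS3A, which lies on chromosome 4 from 86899 to 87806, had a TE of 0.82 (0.79 to 0.85), and RpL38, at 403612 to 403824 of 2R, had 1.77 (1.63 to 1.92). In the deeper small-polysome library RpL38 had 10435 RPKM, 9.66 times its mRNA RPKM, and in large polysomes 478 RPKM. The median ratio of the family was 0.49 in that library of small polysomes.

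The translation factors were above the ribosome they serve. The 5 elongation factor members had a median of 0.70, with Ef1alpha48D at 0.70, Ef2b at 0.77, Ef1gamma at 0.60, eEF1delta at 0.96 and only Ef1beta low at 0.37. The 27 initiation factors had a median of 0.80 and none was low. Their medians of length and level were 403 aa and 121 mRNA RPKM. Over all members of 250 to 500 aa and 100 to 300 mRNA RPKM the median TE was also 0.80 (n = 235). The scaffold proteins eIF4G (1.91) and eIF4G2 (2.46) were at the top, with eIF4G2 as the high call of the list. The 21 aminoacyl-tRNA synthetases, which load tRNAs with amino acids, had a median of 0.99 and no call in either direction. The 75 mitochondrial ribosomal proteins had a median of 0.75, with 5 low and 1 high, a low share near the 8.94% of all members.

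The lists of protein folding and turnover had medians below that of all members. The proteasome list had a median of 0.68 over 35 members, 5 of them low, against 8.94% of all members. Its medians of length and level were 382 aa and 167 mRNA RPKM. Over all members of 250 to 500 aa and 100 to 300 mRNA RPKM the median TE was 0.80 (n = 235). The proteasome list includes Prosap, a synaptic scaffold protein matched by its symbol, which was the highest at 1.87. The 20S core had a median of 0.69 (n = 14), and its low call, Prosalpha1, is a marked copy. The genes named Rpt, for the ATPases of the cap, had a median of 0.49 (n = 8, Rpt3R and Rpt6R included). Of these Rpt3R, Rpt3, Rpt5 and Rpt4 were low at 0.18 to 0.45. Rpt3R had only 49 mRNA reads, and Rpt6R had a TE of 1.61. In large polysomes the ratios of Rpt3R, Rpt3, Rpt5 and Rpt4 were 0.18, 0.77, 0.67 and 0.55, where all members had 0.92. The 12 Rpn subunits had a median TE of 0.71 with no call. The CCT chaperonin had 0.75 (n = 6). Among 19 heat shock proteins and cognates the 6 low genes were the Hsp70 copies, against 8.94% low over all members. The cytosolic chaperone Hsp83, at 1380 mRNA RPKM, had 1.26.

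Energy metabolism lay near the same level. The 29 nuclear genes of oxidative phosphorylation had a median of 0.74, with 2 low, also near the share of all members. Their medians of length and level were 178 aa and 352 mRNA RPKM. Over all members of 150 to 250 aa and 300 to 1000 mRNA RPKM the median TE was 0.79 (n = 47). The 12 glycolytic enzymes, with medians of 389 aa and 146 mRNA RPKM, had 0.80. The class of 250 to 500 aa and 100 to 300 mRNA RPKM had the same median (n = 235). Ald, the aldolase, was the exception among these enzymes at 2.32 (2.13 to 2.53). The 18 vacuolar ATPase members were above both of these lists, at 1.23, with 2 high, a share near the 10.9% of all members. In mitochondrial import the pore Tom40 reached 3.06 (2.48 to 3.80), while the small chaperone Tim9b stood at 0.32 (0.14 to 0.67, from 40 mRNA reads). In the deeper small-polysome library the ratio of Tim9b was 1.43, so it was not low there. The 13 mitochondrially encoded genes had no values.

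The insulin and TOR list stood at the other end. All 13 members of this list, matched by symbol for the pathway that couples nutrients to growth, were above the median. Their median TE was 1.87, and 5 were high against 10.9% of all members. S6kII (1.45) came into the list by its symbol. From the cell surface inwards, the receptor InR had 24.5 footprint RPKM on 5.79 mRNA RPKM, a TE of 4.23 (3.55 to 5.06). The lipid kinase subunit Pi3K21B had 3.73 and the kinase Pdk1 3.33. The GTPase Rheb and the kinase Tor, which it activates, had 2.17 and 2.38, and the inhibitors gig and Tsc1 had 1.32 and 1.52. The members had a median of 968 aa and 19.99 mRNA RPKM, and over all members of 500 to 1000 aa and 10 to 30 mRNA RPKM the median TE was 1.15 (n = 762). At the same mRNA level it was 1.41 at 1000 to 1500 aa (n = 273) and 1.81 over 1500 aa (n = 197). The median ratio of the list was 2.02 in large polysomes, where all members had 0.92. In the deeper small-polysome library it was 0.95, where all members had 0.96.

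Other lists of regulators also had medians above that of all members. Ecdysone response genes had a median of 1.91 (n = 7), with Eip63E at 2.62, Eip74EF at 2.20 and Eip75B at 2.06 high and Eip71CD low at 0.47. Over all members 10.9% were high and 8.94% low. Nonsense-mediated decay factors had 1.66 (n = 6), led by the helicase Upf1 at 2.49, and the RNA interference list had 1.23 (n = 10), led by AGO1 at 2.92 (2.62 to 3.24). The decay and RNA interference lists hold long CDSs, with medians of 1178.5 and 1202.5 aa. Over all members of 1000 to 1500 aa and 10 to 30 mRNA RPKM the median TE was 1.41 (n = 273), above the RNA interference list. In the deeper small-polysome library the decay list had 0.47, RNA interference 0.51, ecdysone genes 1.03 and all members 0.96. AGO1, which works with microRNAs, was above AGO2, which works with siRNAs, at 0.71. The polyamine and stress list had 1.66 (n = 9). There the antioxidant factor cnc was high at 2.65, crc, the ATF4 factor, had 1.77, the ornithine decarboxylase antizyme Oda 1.65, SamDC 1.89, Gcn2 1.99, Xbp1 1.66 and the kinase PEK 1.28, while the eIF4E-binding protein Thor had 0.93 and SpdS 0.91.

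Cell cycle genes were spread out. The 29 cyclins and mitotic regulators had a median of 1.13 and no low call, and the G1 cyclins CycD (3.26, 2.52 to 4.26) and CycE (3.21, 2.42 to 4.29) were the high ones, while the mitotic cyclins CycA and CycB had 1.29 and 1.14. The MCM list had a median of 0.76 (n = 7), and Mcm10, which is not a subunit of the MCM ring, was alone at 2.80. Among 14 cytoskeletal members the cofilin tsr and the myosin light chain Mlc-c were high and betaTub97EF, at 0.40, and zip were low. Over all members 10.9% were high and 8.94% low. Footprints covered a fraction of 0.378 of the betaTub97EF CDS, against a median of 0.669 in the low genes outside the histone repeats. The part of read mapping in its value was not tested.

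Iron and metal genes were few. The ferritin heavy chain Fer1HCH had 235 footprint RPKM on 478 mRNA RPKM, a TE of 0.49 (0.44 to 0.54), and SdhB had 0.66. In flies both leaders can bear an iron-responsive element, on which the iron regulatory protein Irp-1A sits, and Irp-1A had 0.96, Irp-1B 0.63, the transporter Mvl 1.41 and mfrn 1.98. Metallothionein MtnA, of 40 aa, had 0.52 (0.43 to 0.62) at 768 mRNA RPKM and was the only member of 5 listed. Its ratio in the deeper small-polysome library was 2.39. The 20 members of the IMD and Toll immune pathways had a median of 1.09, where the receptor Tl was high at 2.73 and the pattern receptor PGRP-SA low at 0.27 (0.17 to 0.41). Among hemocyte genes Pxn was high at 2.15 and the phagocytosis receptor eater low at 0.27 (0.21 to 0.33). Footprints covered a fraction of 0.376 of the eater CDS, against a median of 0.669 in the low genes outside the histone repeats. The part of read mapping in the value of eater was not tested. The 5 dosage compensation members, which act on the male X, had a median of 1.18, and the 8 Sm core proteins of the splicing machinery 0.73.

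**Figure D4:**
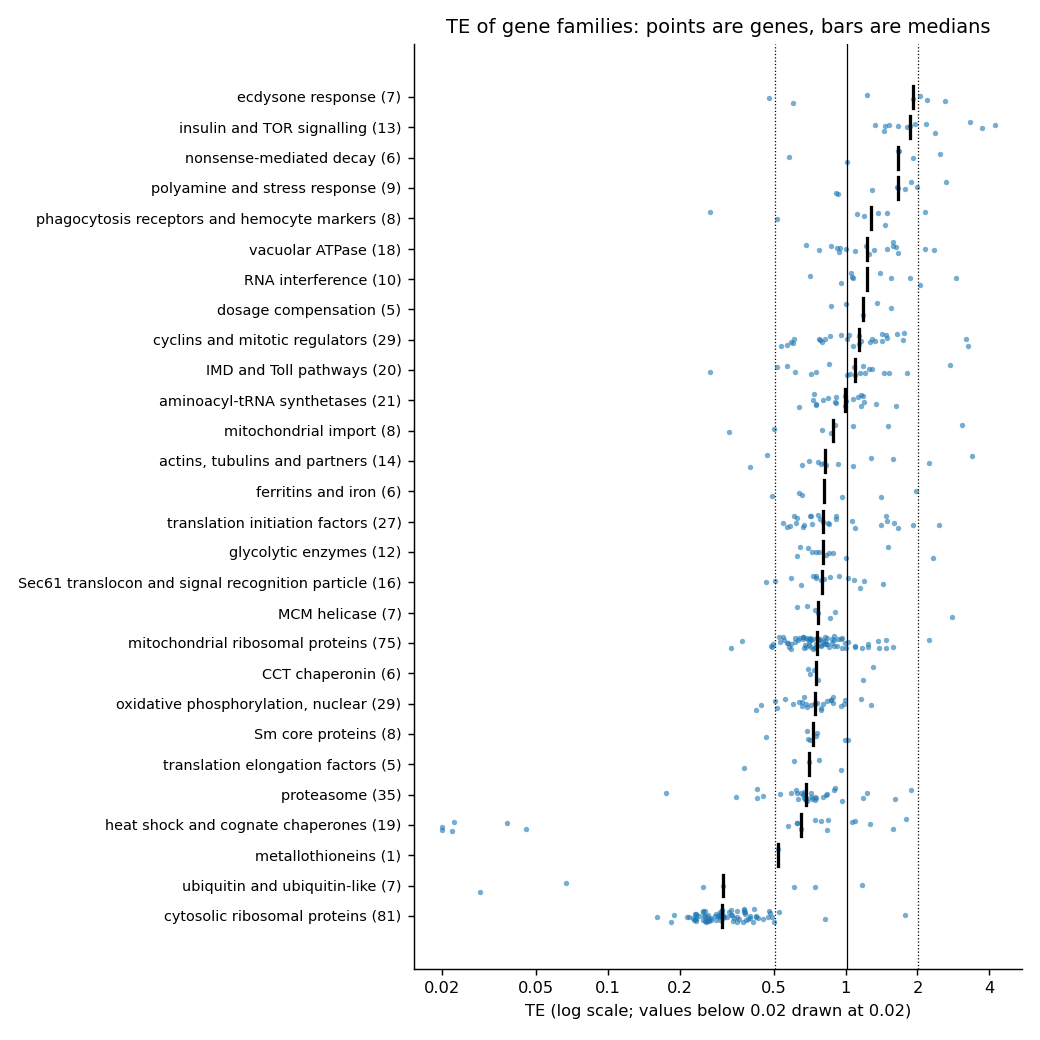
TE (x axis, log scale) of the members of 28 families, histones left out, with 1 point per gene, a bar at the family median and the number of members in brackets. The solid line is the median of all members and the dotted lines are 2-fold above and below it. Ribosomal proteins gather around 0.30, most housekeeping families between 0.65 and 1.0, and the insulin and TOR list around 1.87.

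The median TE of chromosome 4 genes was above that of every other chromosome arm. Chromosome 4 is the small dot chromosome of the fly, rich in heterochromatin, on which active genes are bound by their own chromosome-specific protein. It held 31 members with a median TE of 2.50. The medians of X, 2L, 2R, 3L and 3R were 1.02, 0.98, 1.01, 1.08 and 0.97. High TE was called for 21 of the 31 genes (67.7%) against 10.6% of the 6299 others, and none was low. The whole counting interval lay beyond the 2-fold limit for 15 of them, and 27 were above the median of all genes.

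The chromosome 4 genes were longer than average, at a median of 730 aa, and lower in mRNA, at 18.0 RPKM, so they were set beside genes of the same broad classes of length and level, which do not match them fully. Over 500 aa and under 30 mRNA RPKM the median was 3.71 for 17 genes of chromosome 4 and 1.38 for 1597 others, but the former had medians of 1451 aa and 9.46 mRNA RPKM and the latter 854 aa and 15.4 mRNA RPKM. In CDSs of 250 to 500 aa it was 2.07 (n = 9) against 0.91 (n = 2021), and at 30 to 100 mRNA RPKM 1.99 (n = 6) against 0.97 (n = 2208). The 4 genes at or below the overall median were CG1970 (0.62), CG11077 (0.69), RpS3A (0.82) and ATPsyn-beta, the catalytic subunit of the mitochondrial ATP synthase (0.99). These 4 had the highest mRNA levels of the chromosome, from 156 to 2349 RPKM.

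Highest after CG31998 and CG32000 were the growth factor gene myo (5.26, from 44 mRNA reads), CG2316 (5.23) and CaMKII (5.02). The semaphorin receptors plexA and plexB had 4.83 (4.40 to 5.31) and 3.19 (2.61 to 3.91), the calcium pump PMCA 4.24, the ephrin receptor Eph 3.73, the membrane skeleton protein Ank 3.71 and the adaptor Crk 2.95. In the fractions, with the same mRNA as denominator, the median ratio of the 31 genes was 1.799 in the deeper small-polysome library, where all members had 0.96, and 1.65 in large polysomes, where all members had 0.92. In the other library of small polysomes the medians were close, at 0.86 for the 31 genes, 0.85 for X and 0.76 for all members.

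**Figure D5:**
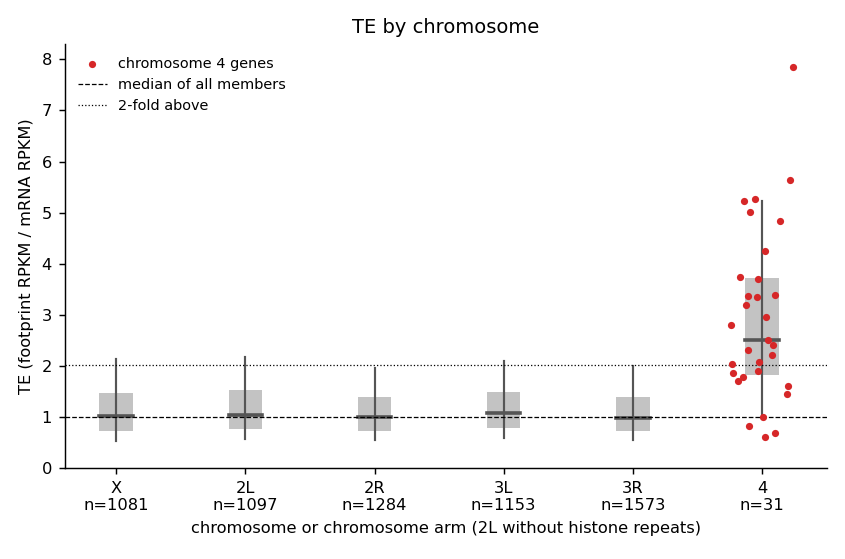
TE (y axis, linear) by chromosome or arm, with medians as thick lines, quartiles as boxes and the 10th to 90th percentile as thin lines, and each of the 31 chromosome 4 genes as a red point. The arms other than 4 have medians near the dashed line at 1.01 (2L without histone repeats 1.04), while the median of chromosome 4 is 2.50 and 21 of its points lie above the dotted 2-fold line.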

How the data were processed

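Footprints of S2 cells from all polysomes and total cytoplasmic mRNA were compared over annotated CDSs. Footprints of 28 to 34 nt and mRNA fragments of 50 to 80 nt, taken by oligo(dT), were sequenced as 50 nt reads. The authors clipped adapters, used Bowtie to discard reads of rRNA and tRNA, aligned what was left to FlyBase Release 5 by TopHat and, by their methods, retained only single-place matches, which could not be checked for the mRNA column. Their summary of reads gives no number of such matches for the mRNA libraries. Tool versions are not given in the sources used here. The deposited densities are RPKM, which the authors scaled by CDS length and mapped reads, and the deposited footprint coverage is a fraction of the CDS from 0 to 1. The mRNA values appear to pool 2 libraries, which the files do not separate.

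TE was footprint RPKM over mRNA RPKM on the longest CDS of each gene, from 5 mRNA RPKM upward. Whole reads were recovered from the RPKM steps within 0.01 for 100% of CDSs, and the procedure was tested on simulated data. Intervals are exact Clopper-Pearson intervals of footprints among the reads of both libraries. With a single footprint library no test was made, so calls are folds of 2 and 4 around the median TE. Named were the 15 highest and lowest TE at 50 mRNA reads or more, the 3 highest and lowest of each mRNA class, the 10 highest by mRNA and by footprints, the extremes of each of 30 lists matched by symbol, and all members of 5 lists. The other genes named, among them those of chromosome 4, the genes at least 4-fold above the median, further list members and the low genes without a marked copy, were chosen after their values were seen. The members, lists and calls were chosen with earlier results of these data known. Upstream ORFs were linked by FlyBase identifiers through an Ensembl annotation (BDGP6, a later build) for 6219 members, and no coordinates of it were used. ORFs of non-coding RNAs were not used here, and no sequences were analysed. Alternatives concerned the mRNA limit, read minimum, CDS choice, overlapping and repeated genes, a pseudocount of 1 and the scaling. Computations ran in Python 3.11.15 with pandas 2.3.3, scipy 1.17.1, numpy 2.4.6 and matplotlib 3.10.9.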

Additional observations from a re-analysis of the deposited data

Results flagged for a closer look

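Outside the genes described, 38 of the 5369 genes listed at an mRNA RPKM of 0 had more than 3 all-polysome footprint reads, the limit that a count of 0 allows, so that footprints appear where no mRNA was counted. CG43897 had 67 footprint reads and chrb, a growth inhibitor of the TOR pathway, had 11. The other genes among the 20 highest had 11 or fewer. No TE can be given for them.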

How the results depend on the processing

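None of the 6 results recomputed (median TE, high and low counts, rho with mRNA and with length, ribosomal protein median) reversed, and the chromosome 4, upstream ORF and other family values were not recomputed. With the mRNA limit at 20 RPKM (4193 genes) the median TE was 0.93, with 349 high and 348 low genes and a rho of TE and mRNA of -0.29, and with the limit at 1 RPKM (7253 genes) that rho was -0.22. At 50 mRNA reads or more the rho with mRNA was -0.39 and the rho with length 0.44. Taking every CDS with distinct coordinates (10910) gave a median TE of 1.16, 1177 high and 1030 low CDSs, a rho with length of 0.41 and a ribosomal protein median of 0.262 times that of all. Scaling to reads in the longest CDSs gave a median TE of 1.09. Without near-identical neighbours, chosen after seeing the data, the median was 1.03, the rho with mRNA -0.31 and the rho with length 0.36. Without the histone repeats, also chosen after, these rhos were -0.31 and 0.36. No paired analysis was possible because there is 1 footprint library and 1 mRNA sample. Depth limits the low side, where members with as few as 5 mRNA reads give wide intervals, and 694 of 6330 members had under 50 mRNA reads.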
